A study of Bos taurus with 40 samples.

Results

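The genes described here were the peroxisome proliferator-activated receptors (PPARA, PPARD and PPARG), the retinoid X receptors (RXRA, RXRB and RXRG), the coactivators PPARGC1A and PPARGC1B, and ANGPTL4, a gene that PPARs are known to switch on. They were chosen by symbol, 9 in all. The count tables held rows for 7 of them among 13570 genes, and PPARGC1B and RXRA were not analysed here. Every one of the 7 had reads in the data, so 7 members were tested among the 13148 genes with at least 1 read in any library.

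A PPAR works as a dimer with an RXR on DNA. The dimer senses fatty acids and their derivatives and switches on genes of fat storage and fat burning. PPARα, the product of PPARA, is known for fatty acid oxidation and ketone body synthesis in liver. PPARγ, from PPARG, drives fat cell formation, and PPARδ, from PPARD, is found in many tissues and is known for fatty acid oxidation in muscle. PGC-1α, the product of PPARGC1A, is a coactivator that binds PPARs and other nuclear factors and is known for building mitochondria in muscle and for gluconeogenesis in liver. ANGPTL4 is a secreted protein that inhibits lipoprotein lipase, the enzyme that frees fatty acids from blood triglycerides.

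RNA had been sequenced from 4 tissues of 10 Korean cattle, 5 cows and 5 bulls with no treatment named, all slaughtered at more than 22 months of age. The tissues were liver, abdominal fat, the longissimus dorsi muscle and the pituitary gland, so each tissue and sex had 5 libraries and each tissue had 10. The animals are numbered cow 1 to cow 5 and bull 1 to bull 5. The source labels give only sex and tissue, and a number was taken to name the same animal in every tissue. Counts of animals and the animal block rest on that. Reads counted on genes ran from 5173092 to 19165864 per library. Levels are given as CPM, counts per 1000000 reads of the library total after trimmed mean of M values (TMM) scaling. CPM are not divided by gene length, so a level was compared between tissues or animals and never between genes. These were bulk tissues, in which fewer cells of a type and less RNA per cell cannot be told apart.

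The tissue labels were checked with marker genes. The summed level of the 4 measured hepatocyte markers was 76900 to 187707 CPM in liver and at most 447 CPM elsewhere. The 4 measured adipocyte markers summed to 5448 to 23391 CPM in fat and to at most 663 CPM elsewhere. The 5 muscle fibre markers and the 7 pituitary hormone markers likewise summed to at least 82771 CPM in their own tissue and at most 387 CPM in any other. Among 20 bull libraries, 2 stood apart in the sex-linked genes. The liver library labelled bull 3 held 1401 CPM of XIST and no read on the Y-linked genes DDX3Y, USP9Y and ZFY, which goes against its label, and the liver library nearest to it was that of cow 4 (r = 0.993). The fat library of bull 5 had 1.78 CPM of USP9Y, against 28.1 to 120 CPM in the other 18 bull libraries. Its XIST level was 1.39 CPM, against 316 to 2371 CPM in the cow libraries, so XIST did not go against its label. Of the tissue comparisons of members, 1 lost its call when either library was left out, PPARA between fat and the pituitary gland without the fat library of bull 5.

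PPARA was high in liver and muscle and low in fat and the pituitary gland. Its level in the 10 livers was 52.4 CPM at the lowest, 97.2 at the median and 242 at the highest, with a mean of 110 ± 56.3 (SD, n = 10). In the 10 muscles it was 25.2, 81.1 and 166 CPM, with a mean of 89.4 ± 45.0 (SD, n = 10). The ranges of liver and muscle overlapped, and the difference of 0.31 ± 0.32 (SE) on the log2 scale was not called (adjusted p = 0.435 in edgeR's quasi-likelihood test). Fat held 4.34, 8.51 and 26.4 CPM (mean 11.4 ± 7.46, SD, n = 10), below the liver level of the same animal in all 10 animals. The liver level was 9.72-fold that of fat (log2 fold change of fat against liver -3.28 ± 0.33, adjusted p = 1.49e-10), and no fat library reached the lowest liver library. Fat was also below muscle in 10 of 10 animals (log2 fold change -2.97 ± 0.33, adjusted p = 1.77e-09), although 1 muscle library, that of cow 1, lay within the range of fat. The pituitary gland, at 3.13, 6.15 and 12.7 CPM, had the lowest mean, 6.60 ± 2.80 (SD, n = 10). Liver exceeded it by 4.06 ± 0.33 (log2, adjusted p = 1.02e-12) and muscle by 3.76 ± 0.33 (adjusted p = 7.32e-12), both without overlap. Fat was 1.72-fold above it (adjusted p = 0.0378), a call that was lost without the fat library of bull 5 (adjusted p = 0.154) and in 8 of 18 alternatives.

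PPARD had another order, with fat and muscle high and liver and the pituitary gland low. Fat ran from 54.8 CPM through a median of 74.5 to 83.6, a mean of 71.5 ± 9.88 (SD, n = 10), and a coefficient of variation of 13.8%, the lowest of any member in any tissue. Muscle had nearly the same mean, 69.1 CPM, with a much wider SD of 40.5. The cows made that spread. Cows 1, 2 and 3 held 29.9, 32.1 and 28.8 CPM in muscle and cows 4 and 5 held 139 and 136, while the 5 bulls lay between 45.7 and 77.5 CPM. The same 2 cows were the highest for PPARA in muscle, at 166 and 162 CPM, and for RXRB, at 75.4 and 73.5. Their muscle libraries also had TMM factors of 0.518 and 0.666, against 0.831 to 0.912 in the other 3 cows, and a lower factor raises every CPM of a library. On library size alone PPARD in cows 4 and 5 was 72.0 and 90.9 CPM, against 24.0 to 29.2 in cows 1 to 3, and PPARA was 85.8 and 107.6 CPM, above the other 8 muscles. RXRB was then 39.0 and 48.9 CPM, against 32.2 to 33.6 in cows 1 to 3, and cow 4 lay below bull 3 at 41.6 CPM. What part the library composition had in this was not tested.

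Liver had 24.3 ± 8.09 CPM of PPARD (SD, n = 10) and the pituitary gland 19.2 ± 5.26. Fat stood 2.96-fold above liver (log2 fold change 1.57 ± 0.24, adjusted p = 4.35e-07) and 3.75-fold above the pituitary gland (1.91 ± 0.24, adjusted p = 8.31e-09), with no overlap of the libraries in either pair. Muscle stood 2.86-fold above liver (adjusted p = 7.34e-07) and 3.62-fold above the pituitary gland (adjusted p = 1.36e-08), and was the higher tissue in 10 of 10 animals in both pairs. Neither fat against muscle (log2 fold change 0.05 ± 0.24, adjusted p = 0.911) nor liver against the pituitary gland (0.34 ± 0.24, adjusted p = 0.214) was called, and the sign of the liver and pituitary difference turned when libraries were scaled by size alone. On that scaling the fat and muscle difference in mean log2(CPM + 1) went from 0.25 to 1.04. The median gene moved by 0.64 (log2) in the same pair.

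PPARG had the steepest order of the 3 PPARs. It ran from 24.1 CPM through 46.8 to 78.7 in fat, a mean of 46.0 ± 15.1 (SD, n = 10), with 306 to 1018 reads per library. Muscle held 1.09 ± 0.93 CPM and liver 0.502 ± 0.467 (SD, n = 10 each). In the pituitary gland the 10 libraries together held 11 reads, at most 3 in any one and 0 in 3 of them. A count of 3 reads corresponded to 0.132 to 0.793 CPM over the libraries, so every pituitary library was at or under that floor. From the pooled reads fat held 101 times the level of liver (95% exact interval 74.0 to 143) and 40.8 times that of muscle (32.8 to 51.4). Against the pituitary gland the ratio was 653 (365 to 1308). These intervals cover counting error only. Differences between animals are covered by the fitted log2 fold changes, 6.58 ± 0.37 for fat against liver (adjusted p = 3.52e-17) and 5.37 ± 0.34 for fat against muscle (adjusted p = 3.25e-15). Fitted values against the pituitary gland, 9.13 ± 0.53 for fat (adjusted p = 2.06e-19), 2.55 ± 0.57 for liver (adjusted p = 8.43e-05) and 3.76 ± 0.55 for muscle (adjusted p = 1.85e-08), depend on the prior count because its libraries were at the floor.

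The highest PPARG level outside fat, 3.29 CPM from 25 reads, was in the muscle of cow 5. That library also had the highest adipocyte marker sum of the 10 muscles, 663 CPM against 26.4 to 240 in the rest. Muscle against liver was called for PPARG (adjusted p = 0.0135), but not without the muscle library of cow 5 (adjusted p = 0.0705). The part of fat cells in the muscle samples was not tested.

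**Figure D1:**
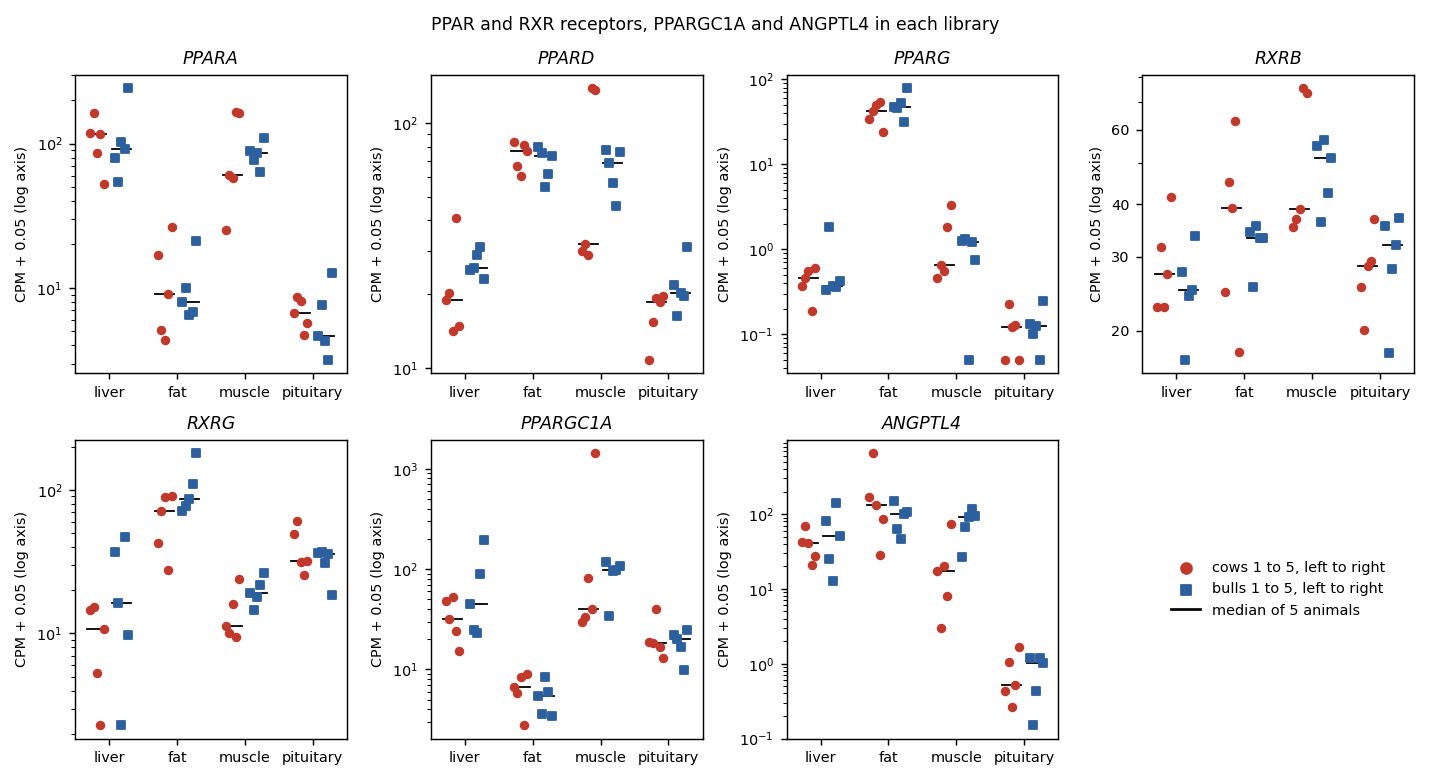
Level of each measured gene in each library, as CPM plus 0.05 on a log axis, by tissue. Circles are cows and squares are bulls, each in the order of animals 1 to 5, and the black bars are medians of 5 animals. PPARG lay at 24.1 to 78.7 CPM in fat and at most 3.29 CPM in every other library, and PPARGC1A reached 1422 CPM in 1 muscle library, that of cow 5.

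The RXR partners were measured through RXRB and RXRG. RXRB, which is expressed in most tissues, varied least between tissues of all members. Its mean was 50.2 ± 15.0 CPM in muscle, 35.1 ± 12.5 in fat, 29.0 ± 6.62 in the pituitary gland and 27.3 ± 6.84 in liver (SD, n = 10 each). With TMM scaling muscle was higher than liver by 0.88 ± 0.20 on the log2 scale (adjusted p = 0.000164), in 10 of 10 animals, and higher than the pituitary gland by 0.79 ± 0.20 (adjusted p = 0.000544), also in 10 of 10. Muscle was also higher than fat by 0.52 ± 0.20 (adjusted p = 0.0207), in 8 of 10 animals. The muscle differences from fat and from the pituitary gland both changed sign on library size alone, a scaling that moved the median gene by 0.64 and -0.80 (log2) in these 2 pairs. The other 3 pairs of tissues were not called for RXRB, with log2 fold changes of 0.36 ± 0.20 for fat against liver (adjusted p = 0.106), 0.27 ± 0.20 for fat against the pituitary gland (adjusted p = 0.221) and -0.09 ± 0.20 for liver against the pituitary gland (adjusted p = 0.733). Without cow 5 the first 2 were called, at 0.53 and 0.42 (adjusted p = 0.0123 and 0.0436), and the call for muscle against fat was lost without the muscle library of cow 5 (adjusted p = 0.0547) or without bull 5 (adjusted p = 0.176).

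RXRG, the isotype best known from skeletal muscle, pituitary thyrotrophs and brain, was highest in fat here. Fat held 27.4, 81.8 and 179 CPM at the lowest, median and highest library, with a mean of 84.3 ± 40.9 (SD, n = 10). The highest library was that of bull 5, in which the adipocyte marker sum was also the highest of the 10 fat libraries, at 23391 CPM. That library had a TMM factor of 0.963, against 1.26 to 1.46 in the other fat libraries, and a lower factor raises every CPM. The pituitary gland came next at 35.7 ± 11.8 CPM, and fat was above it in 9 of 10 animals, by 2.30-fold (log2 fold change 1.20 ± 0.32, adjusted p = 0.00154). Without the fat library of bull 5 that log2 fold change was 1.02. Muscle, at 9.46 to 26.1 CPM (mean 17.0 ± 5.81), lay below the lowest fat library (log2 fold change of fat against muscle 2.29 ± 0.33, adjusted p = 2.92e-07). Liver had a close mean, 16.0 CPM, and the widest spread, from 2.25 CPM in cow 4 and 2.26 in the library labelled bull 3 to 47.2 in bull 4. Fat was above liver in 10 of 10 animals (2.47 ± 0.33, adjusted p = 5.78e-08), by 2.32 without the liver library labelled bull 3 and by 2.23 without the fat library of bull 5. The difference between muscle and liver was not called (log2 fold change of liver against muscle -0.18 ± 0.33, adjusted p = 0.690). The pituitary gland was above both, by 1.26 ± 0.33 over liver (adjusted p = 0.00102) and 1.09 ± 0.33 over muscle (adjusted p = 0.00428).

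PPARGC1A had its highest mean in muscle, but 1 animal set that mean. Cow 5 held 1422 CPM in muscle, from 10813 reads. The other 9 muscles lay between 29.9 and 117 CPM, a mean of 70.5 ± 35.7 (SD, n = 9), and with cow 5 the mean rose to 206 ± 429. Among all 13148 genes PPARGC1A was the one in which the cow 5 muscle stood farthest above the next muscle, by 3.60 on the log2 scale. The genes that followed, named after their values were seen, were CIDEC (2.01), a lipid droplet protein, SLC25A33 (1.99), RAB3B (1.96) and FBP1 (1.92), an enzyme of gluconeogenesis. The library itself was not unusual in how many genes it led, 9.62% of 10946 genes against 4.30% to 18.4% in the other 9 muscles.

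Liver had 15.0, 38.4 and 197 CPM of PPARGC1A at the lowest, median and highest animal, with bull 5 the highest and a mean of 54.8 ± 54.1 (SD, n = 10). The pituitary gland had 9.83, 18.6 and 39.5 CPM, a mean of 19.9 ± 8.06. Fat had the least, 2.73, 5.80 and 8.89 CPM, a mean of 5.88 ± 2.19, and every fat library lay below every library of the other tissues. Liver was 8.71-fold above fat (log2 fold change of fat against liver -3.12 ± 0.47, adjusted p = 2.14e-06), and the pituitary gland was 3.40-fold above fat (-1.77 ± 0.47, adjusted p = 0.00226). The log2 fold change of fat against muscle was -4.86 ± 0.47 (adjusted p = 1.33e-09), and -3.46 without the muscle library of cow 5 (adjusted p = 7.49e-11). Muscle exceeded the pituitary gland by 3.10 ± 0.46 (adjusted p = 1.78e-06) and by 1.70 without that library (adjusted p = 2.41e-05). With the animal as a block these 2 values were -4.11 and 2.24.

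The order of muscle and liver for PPARGC1A was not settled. The log2 fold change of liver against muscle was -1.74 ± 0.46 (adjusted p = 0.00220), with muscle higher in 8 of 10 animals. With the animal as a block it was -0.98 and no longer called (adjusted p = 0.0769), and without the muscle library of cow 5 it was -0.34 (adjusted p = 0.385). Liver against the pituitary gland (1.36 ± 0.46, adjusted p = 0.0145) was higher in liver in 10 of 10 animals and was not called without bull 5 (1.06, adjusted p = 0.0661).

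ANGPTL4 was highest in fat and very low in the pituitary gland. Fat held 28.6, 103 and 647 CPM at the lowest, median and highest library, and the highest was cow 2, 3.85 times the next. The mean was 153 ± 179 (SD, n = 10), or 97.7 ± 47.3 in the 9 other animals. Liver and muscle had close means, 51.1 ± 38.5 and 51.8 ± 41.5 CPM, whose difference was not called (log2 fold change 0.19 ± 0.46, adjusted p = 0.783), and both were wide, from 12.7 to 142 CPM in liver and from 2.94 to 119 CPM in muscle. Fat was above liver by 1.49 ± 0.46 on the log2 scale (adjusted p = 0.00545), in 9 of 10 animals, and above muscle by 1.68 ± 0.46 (adjusted p = 0.00225), in 7 of 10. Without cow 2 the difference from muscle was 1.02 (adjusted p = 0.0388) and without cow 5 it was 2.29. The pituitary gland had 118 reads in 10 libraries, 0.101 to 1.64 CPM, and lay below every library of the other tissues. Fat exceeded it by 7.54 ± 0.48 (log2, adjusted p = 1.48e-13), liver by 6.04 ± 0.48 (adjusted p = 9.70e-12) and muscle by 5.86 ± 0.48 (adjusted p = 2.21e-11).

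Most genes differed between these tissues, so the counts of members were read against the share of all genes called. Between fat and liver 4 members were higher in fat, where 35.0% of all genes were, and 2 in liver, against 28.7%. Between fat and muscle 3 were higher in fat (32.6% of all genes) and 3 in muscle (26.7%). Between fat and the pituitary gland 5 were higher in fat (31.6%) and 1, PPARGC1A, in the pituitary gland (32.6%). Between liver and muscle none was higher in liver (27.9%) and 4 were in muscle (33.8%). PPARD, PPARG, PPARGC1A and RXRB were these 4, and 2 remained called without the muscle library of cow 5. Between liver and the pituitary gland 4 were higher in liver (29.2%) and RXRG in the pituitary gland (35.0%). Between muscle and the pituitary gland all 7 were called, 6 higher in muscle (31.2%) and RXRG in the pituitary gland (32.5%). The median log2 fold change of the members was 1.49 for fat against liver (0.13 over all genes), 0.05 for fat against muscle (0.14), 1.20 for fat against the pituitary gland (-0.00), -0.88 for liver against muscle (-0.10), 1.36 for liver against the pituitary gland (-0.12) and 3.10 for muscle against the pituitary gland (-0.02). The members were few, and these counts describe them without setting them apart from other genes.

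**Figure D2:**
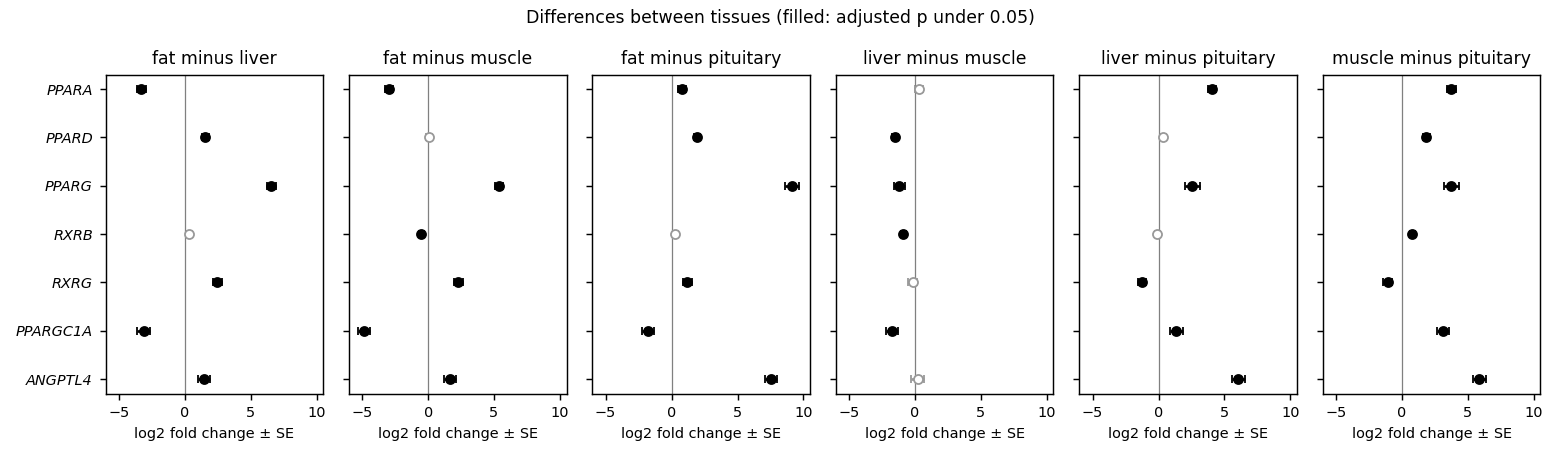
Log2 fold change of each measured gene between the tissues named above each panel, with the first tissue minus the second and bars of 1 SE. Filled points had an adjusted p under 0.05 in edgeR's quasi-likelihood test over 40 libraries. PPARG in fat against the pituitary gland was the largest, at 9.13, and RXRB was never farther from 0 than its -0.88 in liver against muscle.

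The study was made to compare the sexes. In none of the members was a difference between bulls and cows called at an adjusted p under 0.05, in any tissue or over the 4 tissues together. In the test within each tissue (model M1, edgeR's likelihood ratio test) 0 of 7 members were called in liver, fat, muscle and the pituitary gland, where 0.175%, 0.114%, 0.517% and 0.745% of all genes were. At an unadjusted p under 0.05 there were 2, 0, 2 and 0 members. These liver counts take the library labelled bull 3 as a bull. Without it the likelihood ratio test called 61 genes in liver rather than 23, and again 0 members. RXRG, PPARGC1A and ANGPTL4 then had unadjusted p of 0.00352, 0.00582 and 0.0387 (adjusted p = 0.256, 0.331 and 0.700). With sex and tissue in 1 model (M2) 0 of 7 were called against 1.69% of all genes, and 1 had an unadjusted p under 0.05. The sex by tissue interaction called 0 of 7, against 0.335% of all genes, and 2 had an unadjusted p under 0.05. The quasi-likelihood test and DESeq2 called 0 members in each of these 6 comparisons too. A member that was not called may still differ between the sexes. In simulated counts, drawn with no effect shared by the tissues of an animal, the likelihood ratio test found 27% of 2-fold changes in muscle and 3.23% in the interaction.

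ANGPTL4 in muscle came nearest. Cows 1 to 5 held 17.1, 2.94, 20.3, 7.98 and 73.5 CPM, and bulls 1 to 5 held 26.6, 66.5, 90.4, 119 and 93.7 CPM. Bulls were higher than 4 of the 5 cows without overlap, and cow 5 lay among the bulls. The log2 fold change of bulls against cows was 1.74 ± 0.61 (adjusted p = 0.206). Without cow 5 it was 2.70 (adjusted p = 0.00113), the interaction for ANGPTL4 was called too (adjusted p = 0.0387, against 0.399 with cow 5), and the number of all genes called in muscle went from 68 to 131. Without the muscle library of cow 5 alone the interaction had an adjusted p of 0.0771. In the same muscles the summed muscle fibre markers were 86310 to 128332 CPM in cows and 105693 to 156378 in bulls. The summed leukocyte markers were 46.9 to 140 CPM in cows and 19.6 to 70.0 in bulls. Summed adipocyte markers were 26.4 to 663 CPM in cows, with cow 5 the highest, and 68.9 to 240 in bulls. The part of these cell types in the difference was not tested.

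In fat ANGPTL4 was the member with the smallest p and leaned the other way. Cows 1 to 5 held 168, 647, 132, 28.6 and 85.1 CPM and bulls 1 to 5 held 151, 62.7, 46.3, 98.9 and 106 CPM. The groups overlapped, and the log2 fold change of bulls against cows, -1.19 ± 0.64 (adjusted p = 0.745), was -0.16 without cow 2. In the pituitary gland PPARD had the smallest p, with 10.7, 15.3, 19.2, 18.5 and 19.7 CPM in cows 1 to 5 and 21.7, 16.2, 20.2, 19.5 and 31.2 in bulls 1 to 5. The 2 sets of values overlapped (log2 fold change 0.38 ± 0.24, adjusted p = 0.643).

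In liver PPARGC1A was 47.7, 31.7, 52.3, 24.0 and 15.0 CPM in cows 1 to 5 and 45.0, 24.5, 23.0, 88.4 and 197 CPM in the libraries labelled bulls 1 to 5. Its log2 fold change of bulls against cows was 1.16 ± 0.51 (adjusted p = 0.549), 1.37 without the library labelled bull 3 (adjusted p = 0.331) and 0.42 without bull 5. In muscle the PPARGC1A difference was -1.75 ± 0.85 (adjusted p = 0.436) and turned to 0.97 without cow 5 (adjusted p = 0.270). PPARGC1A also had the smallest p of the members in the interaction (adjusted p = 0.394). Over the 4 tissues together RXRG came first, higher in bulls by 0.52 ± 0.24 on the log2 scale (adjusted p = 0.250), with single-tissue estimates that ran from 1.25 for liver through 0.70 for fat and 0.51 for muscle to -0.32 for the pituitary gland. Without the liver library labelled bull 3 the value over tissues was 0.57 (adjusted p = 0.171) and the liver estimate 1.52. Without the fat library of bull 5 the value over tissues was 0.46 (adjusted p = 0.341) and the fat estimate 0.42.

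**Figure D3:**
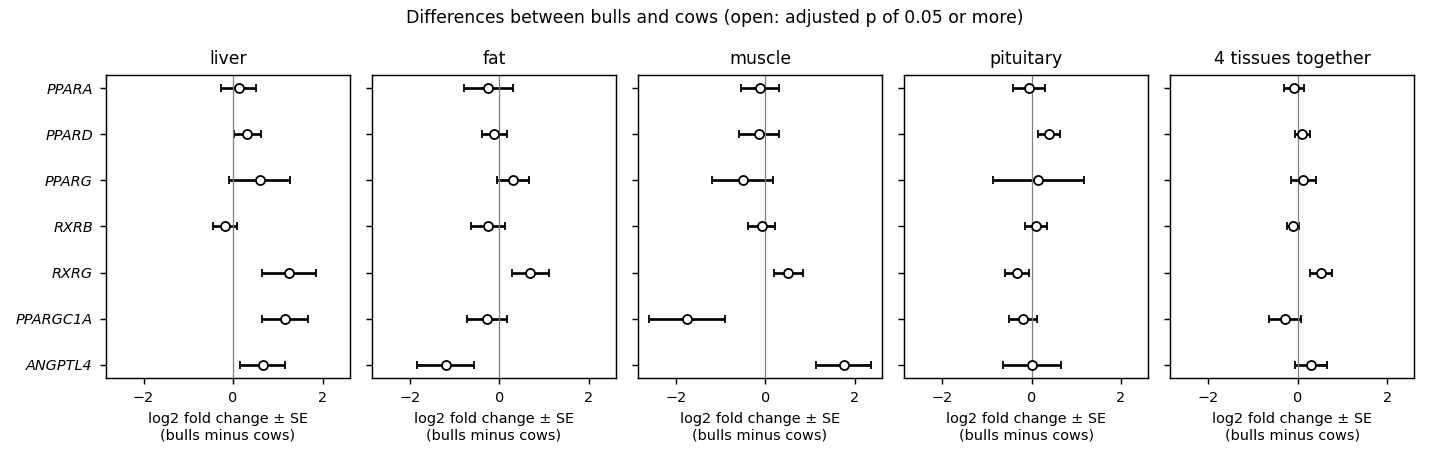
Log2 fold change of bulls minus cows for each measured gene in each tissue and over the 4 tissues together, with bars of 1 SE from edgeR's negative binomial fit. All points are open because none had an adjusted p under 0.05, and ANGPTL4 in muscle (1.74) and PPARGC1A in muscle (-1.75) were the farthest from 0.

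Among animals of 1 tissue PPARGC1A and ANGPTL4 were set against PDK4, a mitochondrial kinase that turns off glucose oxidation and is a known PPAR target. The 8 relations, 2 genes in 4 tissues, were tested by permutation on log2(CPM + 1) over the 10 libraries of a tissue, taken as 10 animals. In liver the libraries of cow 4 and the label bull 3 may not be separate animals, which was not tested. PPARGC1A rose with PDK4 in liver, with Pearson's r = 0.760 (permutation p = 0.00841, adjusted p = 0.0336) and Spearman's rho = 0.830 (permutation p = 0.00485, adjusted p = 0.0388). Without the 2 animals farthest from the median PPARGC1A level, bull 5 and cow 5, r was 0.736 (permutation p = 0.0389, adjusted p = 0.104), and without the library labelled bull 3 it was 0.755 (adjusted p = 0.0648). With the mean of each sex removed it was 0.822 (adjusted p = 0.0187). ANGPTL4 rose with PDK4 in muscle, with r = 0.796 (permutation p = 0.00467, adjusted p = 0.0336) and rho = 0.733 (permutation p = 0.0203, adjusted p = 0.0541). Without the 2 animals farthest from the median ANGPTL4 level, cow 2 and cow 4, r was 0.627 over 8 animals and no longer called (permutation p = 0.107). With the sex means removed r was 0.729 (adjusted p = 0.0962).

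In muscle PPARGC1A and PDK4 had r = 0.596 (permutation p = 0.0965, adjusted p = 0.193) and rho = 0.782 (permutation p = 0.0107, adjusted p = 0.0428), with cow 5 apart from the rest on PPARGC1A and also highest for PDK4 at 13600 CPM. Without its library r was 0.607. ANGPTL4 in liver had r = 0.667 (permutation p = 0.0364, adjusted p = 0.0972). The 4 relations in fat and in the pituitary gland had r from 0.173 to 0.377 and adjusted p from 0.451 to 0.626. In liver the animal with the most PPARGC1A, bull 5, also had the most PDK4 (280 CPM), PPARA (242 CPM) and LPIN1 (2139 CPM, against 25.1 to 260 in the other livers), a gene whose product lipin 1 can act with PGC-1α and PPARα as a coactivator. The members PPARD, PPARG, RXRB, RXRG and ANGPTL4 were each highest in another liver. ANGPTL4 was 51.3 CPM in bull 5 and 142 in bull 4. The share of all genes highest in the liver of bull 5 was not counted, and a shared cause was not tested.

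**Figure D4:**
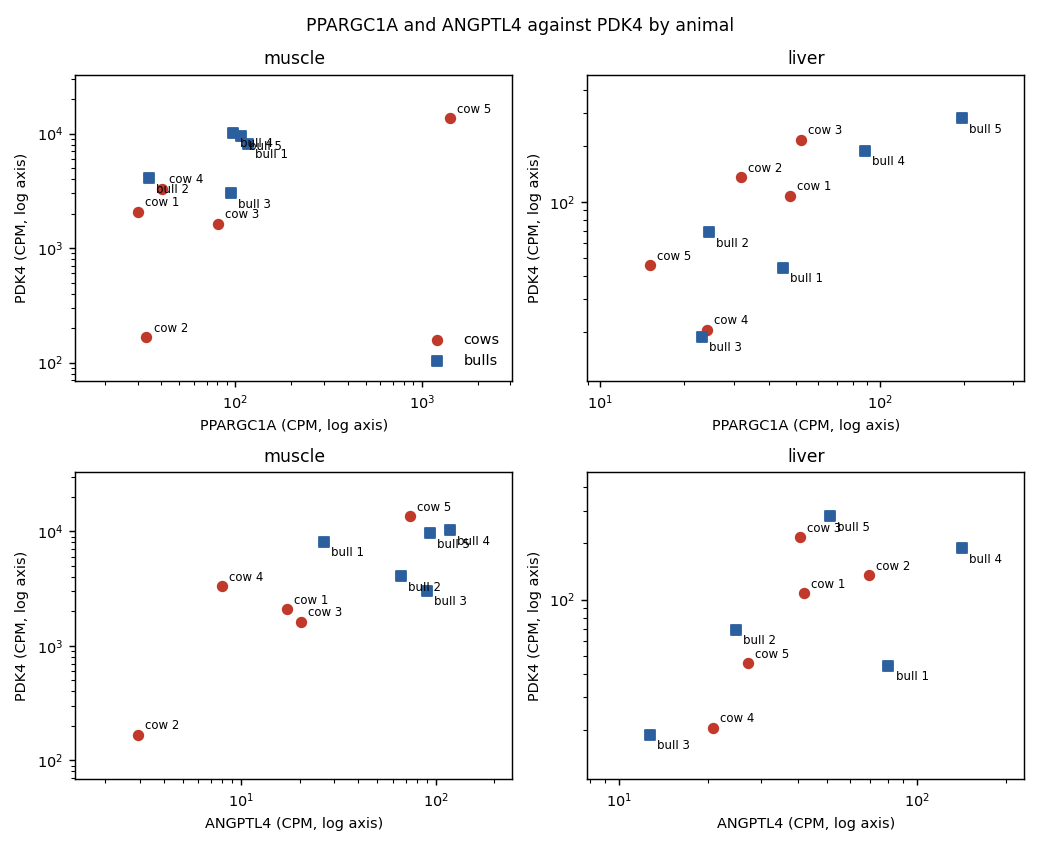
PDK4 against PPARGC1A (top) and ANGPTL4 (bottom) in muscle (left) and liver (right), as CPM on log axes, with circles for cows and squares for bulls, named as labelled. Cow 5 stands alone on the right for PPARGC1A in muscle, and in liver PPARGC1A and PDK4 ran from the lower left, with cow 4 and the library labelled bull 3 side by side, to bull 5 at the upper right.

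Other genes of the pathway were followed as 4 lists, 3 of known targets and 1 of coregulators. Of the 18 listed PPARα targets 16 were measured, and 12 of these had their highest mean in liver. The share of all genes with their highest mean in a given tissue was not counted. Counts by highest mean, here and for the other lists, therefore have no background. Between fat and liver 12 were higher in liver (28.7% of all genes) and 2 in fat (35.0%). The median log2 fold change of fat against liver was -2.02, against 0.13 over all genes. Between liver and muscle, where PPARA itself was not called, 11 were higher in liver (27.9% of all genes) and 2 in muscle (33.8%). The median there was 1.65 against -0.10 over all genes. Fat and the pituitary gland were both low in PPARA. Between these 2 tissues 12 targets were higher in fat (31.6% of all genes) and 2 in the pituitary gland (32.6%). The median of fat against the pituitary gland was 1.47 against -0.00 over all genes. FABP1, the liver fatty acid binding protein, had 993 ± 698 CPM in liver and CYP4A11, a fatty acid hydroxylase, had 272 ± 71.0 CPM, and both were under 1 CPM on average elsewhere (means, SD, n = 10).

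Of 18 listed PPARγ targets 15 were measured, and 9 of these were highest in fat, 5 in muscle and 1, PCK1, in liver. Between fat and liver 13 were higher in fat (35.0% of all genes) and 1 in liver (28.7%), with a median log2 fold change of 3.03 against 0.13 over all genes. Between fat and the pituitary gland 14 were higher in fat (31.6% of all genes) and 0 in the pituitary gland (32.6%), with a median of 7.67 against -0.00. Between fat and muscle 10 were higher in fat (32.6%) and 4 in muscle (26.7%), with a median of 2.40 against 0.14. Muscle held 1.09 CPM of PPARG on average. Between muscle and the pituitary gland 14 targets were nevertheless higher in muscle (31.2%) and 0 in the pituitary gland (32.5%). The median there was 5.21 against -0.02. FABP4, the fat cell fatty acid binding protein, held 5621 ± 3823 CPM in fat and 47.0 ± 51.5 in muscle, and CIDEC held 2374 ± 1094 and 38.5 ± 53.0 CPM. PCK1, the gluconeogenic and glyceroneogenic enzyme, held 1844 ± 1126 CPM in liver and 184 ± 90.9 in fat. FABP4, CIDEC and PLIN1, all listed PPARγ targets, are also on the adipocyte marker list. In the muscle of cow 5, 10 of these 15 genes were at their highest level of the 10 muscles, where 9.62% of all genes were. This count shares genes with the adipocyte marker sum of that library.

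All 18 listed targets of PGC-1α or PPARδ were measured, and 13 had their highest mean in muscle. Between fat and muscle 16 were higher in muscle (26.7% of all genes) and 1 in fat (32.6%). The median log2 fold change of fat against muscle was -1.71 against 0.14 over all genes. Between liver and muscle 11 were higher in muscle (33.8% of all genes) and 2 in liver (27.9%), with a median of -1.67 against -0.10. Between muscle and the pituitary gland 15 were higher in muscle (31.2% of all genes) and 1 in the pituitary gland (32.5%), with a median of 2.38 against -0.02. Between fat and the pituitary gland, PPARGC1A was higher in the pituitary gland and PPARD in fat. Of the list 10 were higher in fat (31.6%) and 3 in the pituitary gland (32.6%), with a median of 0.69 against -0.00. MB, myoglobin, held 16696 ± 5114 CPM in muscle and at most 6.43 CPM on average elsewhere. UCP3, the muscle uncoupling protein, held 875 ± 687 CPM in muscle and under 1 CPM elsewhere. PDK4 held 5575 ± 4462 CPM in muscle and 1100 ± 675 in fat. PPARGC1A stood 12.2-fold above the next muscle in cow 5, and in that library 3 of these 18 genes (16.7%, against 9.62% of all genes) were highest of the 10 muscles: UCP3 (2612 CPM, against 206 to 1117), PDK4 and ESRRA (313 CPM, against 58.6 to 284). Others of the list were not, among them CYCS (17.0 CPM, against 8.28 to 22.8), TFAM (20.1 CPM, against 10.8 to 42.6) and CPT1B (248 CPM, against 109 to 302).

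Of 16 listed coregulators 10 were measured, and 7 of these had their highest mean in muscle. Between fat and muscle 7 were higher in muscle (26.7% of all genes) and 2 in fat (32.6%). The median log2 fold change of fat against muscle was -1.35 against 0.14 over all genes. Between muscle and the pituitary gland 7 were higher in muscle (31.2% of all genes) and 1 in the pituitary gland (32.5%), with a median of 1.25 against -0.02. Between fat and liver 2 were higher in each (35.0% of all genes in fat and 28.7% in liver). LPIN1 held 594 ± 503 CPM in muscle, 305 ± 649 in liver, 145 ± 214 in fat and 17.9 ± 8.99 in the pituitary gland. CITED2, a partner of CBP and p300, was highest in fat at 292 ± 78.2 CPM, and MED1, the Mediator subunit that binds nuclear receptors, was highest in muscle at 147 ± 34.5 CPM and lowest in fat at 27.7 ± 23.2 (SD, n = 10 each). In the sex comparisons 1 gene of the 4 lists was called, UCP3 in the model with sex and tissue, lower in bulls (log2 fold change -1.17, adjusted p = 0.0359). It was not called by the quasi-likelihood test (adjusted p = 0.0845), by limma voom with the animal as a block (adjusted p = 0.322) or without the muscle library of cow 5 (-0.93, adjusted p = 0.0857). With 1 animal left out, the likelihood ratio call was lost without cow 1, cow 2, cow 5, bull 1, bull 2, bull 3 or bull 4. The adjusted p in these fits ran from 0.0707 to 0.161.

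**Figure D5:**
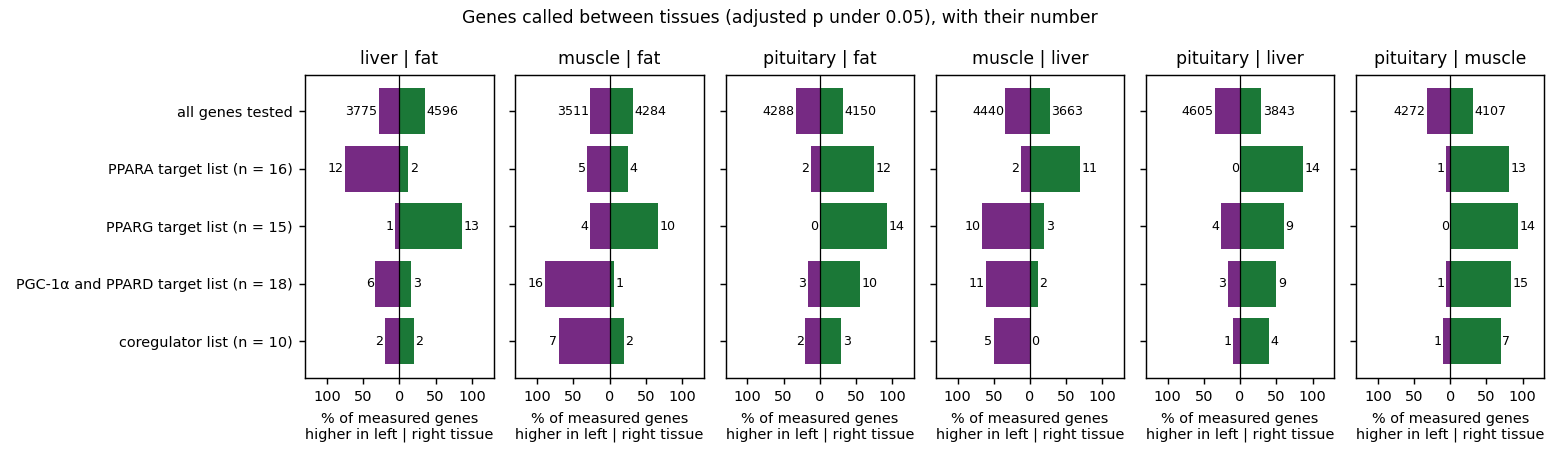
Share of the measured genes of each list, and of all genes tested, that were called higher in the left or the right tissue of each pair, in percent, with the number of genes at the end of each bar. PPARα targets lay mostly on the liver side (12 of 16 against fat), PPARγ targets on the fat side (13 of 15 against liver) and targets of PGC-1α or PPARδ on the muscle side (16 of 18 against fat).

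The genes most like each member over the 40 libraries were found by Pearson's r of log2(CPM + 1) among 10946 genes with a mean of at least 1 CPM. The 40 libraries share 4 tissues and 10 animals, so r mainly follows tissue levels and is given as a description. PPARG was most like ADIG (r = 0.979), an adipocyte membrane protein gene, S100G (0.968) and the hormone gene LEP (0.966). ANGPTL4 was most like MGLL (0.906), which encodes monoglyceride lipase, the fatty acid transporter gene CD36 (0.899) and HADH (0.888), a gene of fatty acid oxidation. PPARA was most like TM6SF1 (0.915), PPP1R39 (0.908) and ALAS1 (0.904), the first enzyme of haem synthesis. PPARD was most like ADORA2B (0.902), CRISPLD2 (0.899) and AQP3 (0.894). The likeness was lower for PPARGC1A, with SF1 (0.843), SOX6 (0.841) and INO80D (0.839), for RXRB, with SGTA (0.860), MUL1 (0.853) and DTX2 (0.836), and for RXRG, with ANO10 (0.834), SNCG (0.818) and BTG3 (0.808).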

How the data were processed

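The authors made poly-A libraries with a TruSeq RNA kit, sequenced them as paired ends on an Illumina HiSeq instrument, trimmed the reads with Trimmomatic, aligned them with TopHat2 and Bowtie2 to the bosTau7 genome and counted uniquely mapped reads per gene with HTSeq on a UCSC annotation. The deposited values are whole read counts per gene symbol, 1 table for each of the 40 samples. The counting mode and strand setting are not given in the sources used here. Reads on the row without a gene name (0.114% to 2.69% of the reads) and the ambiguous reads (0.355% to 1.70%) stayed out of library sizes and tests. A member is named by symbol, since the reference table for gene names is of another assembly.

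Groups followed the labels for sex and tissue. Counts were fitted with edgeR 4.0.16 in R 4.3.3, with TMM factors over the 40 samples, a prior count of 0.125 and all 13148 genes with at least 1 read. Tissues were compared by the quasi-likelihood test on 8 groups of sex and tissue, averaged over the sexes. Sex was tested by the likelihood ratio test, after the study, within each tissue (M1), with tissue as a covariate (M2) and for the interaction. Benjamini-Hochberg adjustment ran over all 13148 genes and an adjusted p under 0.05 was called. SEs come from the fitted negative binomial model. Correlations used 100000 two-sided permutations with adjustment over the 8 relations. The code was tested on simulated counts with 200 genes changed. The likelihood ratio test recovered 27% of 2-fold and 77% of 4-fold changes for sex in muscle. For sex over tissues (M2) it recovered 85.9% and 100%, and for the interaction 3.23% and 72.9%. Of its calls 10.3%, 11% and 12.9% fell on unchanged genes. Each simulated library was drawn on its own, with no effect shared by the tissues of an animal. In the data the consensus correlation between libraries of an animal, from limma voom, was 0.104. The simulated shares for M2 and the interaction may therefore not hold for these data. The quasi-likelihood test recovered 11% of 2-fold changes for sex in muscle.

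The tissues were paired by number, on the assumption that a number names the same animal in every tissue. The liver library labelled bull 3 was paired in this way too. Deviations from group means correlated between the tissues of an animal with medians from 0.0285 to 0.324 over the 6 pairs of tissues. Single animals ran from -0.450 to 0.560. Named were every member in every tissue comparison, in each sex comparison every member called and the one with the smallest p, and of each list the 3 genes with the largest range over tissues and any gene called between sexes. Results for 2 genes that this takes in or touches are not reported here. LPIN1, PDK4, ACADM and ESRRA are on more than 1 list. The members and lists were chosen with earlier results of these data known. Alternatives were the quasi-likelihood or likelihood ratio test, DESeq2 1.42.0, RLE factors, edgeR's filterByExpr, the animal as a block, each animal left out, and leaving out the liver library labelled bull 3, the fat library of bull 5 or the muscle library of cow 5 (the last added after seeing the data).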

Additional observations from a re-analysis of the deposited data

Results flagged for a closer look

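In 10 of 56 groups of 5 animals, the highest or lowest animal lay so far from the other 4 that its gap to the nearest, over the range of the group, passed Dixon's 95% critical value of 0.71. About 1 group in 20 passes by chance if values follow a normal distribution. The rule was applied to CPM without a log step, and groups of different genes share libraries. The count of 10 was therefore not read against that share. In muscle PPARGC1A was 1422 CPM in cow 5 (next cow 80.6) and 34.2 CPM in bull 2, below the next bull at 94.9. ANGPTL4 was 73.5 CPM in the muscle of cow 5 (next cow 20.3) and 647 CPM in the fat of cow 2 (next cow 168). Bull 5 held 242 CPM of PPARA in liver (next bull 103) and 20.9 CPM in fat, both the highest of the bulls. PPARG in liver was 1.79 CPM in bull 2, from 10 reads (next bull 0.378). PPARD in liver was 41.0 CPM in cow 4 (next cow 20.2), PPARGC1A in the pituitary gland was 39.5 CPM in cow 3 (next cow 18.9), and RXRB in fat was 25.4 CPM in bull 2, below the next bull at 33.1. The causes were not tested.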

How the results depend on the processing

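Of the 42 results for a member in a pair of tissues, 34 were called, and 29 of these stayed called in all 18 alternatives, while 6 of the 8 others stayed uncalled. The 5 that lost the call in some were PPARA in fat against the pituitary gland, PPARG and PPARGC1A in liver against muscle, PPARGC1A in liver against the pituitary gland and RXRB in fat against muscle. With the animal as a replicate block the PPARGC1A call for liver against muscle was lost (-0.98, adjusted p = 0.0769) and no other member call changed. On library size alone the sign turned for RXRB, called, in fat against muscle (-0.53 to 0.26) and muscle against the pituitary gland (0.75 to -0.16) and for PPARD, not called, in liver against the pituitary gland (0.30 to -0.51), as differences of mean log2(CPM + 1). In the tissue comparisons and correlations, the other alternatives turned signs only in values that were not called: liver against muscle for ANGPTL4 with the block (-0.14) and without cow 2 (-0.10 to 0.75 over the animals left out) and for RXRG without bull 5 (-0.40 to 0.13), fat against muscle for PPARD without cow 1, 2 or 3 (-0.072 to 0.26), and, without the 2 animals farthest from the median, r in fat for ANGPTL4 (-0.351) and PPARGC1A with PDK4 (-0.0632). Correlations that were no longer called were ANGPTL4 with PDK4 in muscle with the sex means removed (0.729) and without 2 animals (0.627), and PPARGC1A with PDK4 in liver without 2 animals (0.736) and without the library labelled bull 3 (0.755).

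The number of all genes called between sexes was unstable. The quasi-likelihood test called 1 gene in liver, 3 in fat, 7 in muscle, 12 in the pituitary gland, 77 over tissues and 0 in the interaction (922 at an unadjusted p under 0.05), limma voom with the block 8 over tissues, the quasi-likelihood test with the block 0 in the interaction, as without it, filterByExpr 13 in liver and 6 in fat, DESeq2 30 in fat, and the interaction 74 without the fat library of bull 5. Leaving out 1 animal gave 10 to 187 genes in liver, 5 to 22 in fat, 25 to 553 in muscle, 54 to 231 in the pituitary gland, 57 to 714 over tissues and 9 to 197 in the interaction. The most came without cow 4 (liver, muscle, interaction), cow 5 (pituitary gland, over tissues) or cow 3 (fat), the fewest without cow 1 (fat, over tissues, interaction), cow 2 (pituitary gland), cow 3 (liver) or bull 3 (muscle). Members called then numbered 2 to 4 for liver against muscle, 0 to 1 in the interaction and 0 to 1 for sex in muscle, and 2 for liver against muscle without the muscle library of cow 5. The cause was not tested. Isotype shares per length were not run. PPARG in the pituitary gland, at 3 reads or fewer per library, was too shallow for a level.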
